A study of Rattus norvegicus with 30 samples.

Results

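The genes described here encode neuropeptide precursors, granins and the enzymes and release factors of dense-core vesicles. They are 35 genes chosen by symbol: 20 peptide precursors, the growth factor Igf1, 6 granins, 5 genes of prohormone processing, the release factors Cadps and Cadps2, and Secisbp2l. Of these, 34 were listed by symbol and Cort was not analysed here. At least 10 normalized counts in at least 5 libraries were found for 29 of them, out of 12911 genes that passed this filter among 32883 listed.

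The cells were primary cortical neuron cultures from embryonic rats (Sprague Dawley). They received AAV9 αSyn 3K or an AAV9 empty vector (EV) on day in vitro (DIV) 5, and RNA was taken 6, 12 and 19 d later. AAV9 is an adeno-associated virus capsid, and 3K is human α-synuclein with added glutamate-to-lysine substitutions, driven by the CAG promoter, which is active in most cell types. The sample titles of both treatments also carry the unexplained word PBS. The 6 groups were 3K and EV at each of 3 days, with 5 libraries each. The sources used here do not say whether the 5 were separate cultures, so p-values measure the spread between these libraries, which may be technical.

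Neuropeptides are made as large precursors, sorted into dense-core vesicles, cut by prohormone convertases and trimmed and amidated on the way to the terminal. Granins are acidic proteins that help these vesicles form and are themselves cut into peptides. In cortex, many peptides mark GABAergic interneurons, such as somatostatin and vasoactive intestinal peptide, while cholecystokinin and PACAP transcripts are also abundant in excitatory neurons. Several peptide and granin genes carry a cAMP response element (CRE), the site bound by the activity-regulated factor CREB.

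The promoter sequences of 29 of the 35 members were found in RefSeq (GRCr8, 250 bases before to 50 bases after the annotated start). Those of Cck, Penk, Pnoc, Crh, Chga and Pcsk1 were not found, so whether these genes hold a CRE is not known here. The 29 windows are not those of the 29 tested members, as they include Cort, Nmb, Gal, Trh and Pcsk1n, which were not tested. The full CRE, TGACGTCA, read the same on both strands, was in 4 of these 29 windows (13.8%) and in 525 of 27457 promoters of all genes (1.91%). The half-site TGACG on either strand, which every full CRE also contains, was in 17 members (58.6%), against 22.0% of all promoters. The AP-1 site TGANTCA on either strand was in the Nts window alone among the members (3.4%, against 7.33% of all promoters). The 4 windows with a full CRE are shown because they take in the granin that rose most with culture age, the most abundant peptide precursor and the pair of CRE genes, Cartpt and Scg2, that differed between 3K and EV. The CRE is in capitals and each sequence is written 5′ to 3′ on the strand of the gene.
Cartpt (chr2:32991186-32991485, minus strand): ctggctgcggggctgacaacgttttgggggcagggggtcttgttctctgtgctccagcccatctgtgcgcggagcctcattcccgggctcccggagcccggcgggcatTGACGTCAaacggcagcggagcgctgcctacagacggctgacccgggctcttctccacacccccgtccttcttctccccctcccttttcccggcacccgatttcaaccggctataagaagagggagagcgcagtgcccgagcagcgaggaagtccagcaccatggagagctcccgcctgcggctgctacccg
Scg2 (chr9:88256817-88257116, minus strand): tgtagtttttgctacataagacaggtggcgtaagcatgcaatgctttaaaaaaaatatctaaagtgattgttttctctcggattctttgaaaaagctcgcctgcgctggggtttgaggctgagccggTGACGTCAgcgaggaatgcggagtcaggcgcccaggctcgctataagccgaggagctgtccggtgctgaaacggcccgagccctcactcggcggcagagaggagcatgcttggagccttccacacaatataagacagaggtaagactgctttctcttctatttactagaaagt
Vgf (chr12:25276971-25277270, minus strand): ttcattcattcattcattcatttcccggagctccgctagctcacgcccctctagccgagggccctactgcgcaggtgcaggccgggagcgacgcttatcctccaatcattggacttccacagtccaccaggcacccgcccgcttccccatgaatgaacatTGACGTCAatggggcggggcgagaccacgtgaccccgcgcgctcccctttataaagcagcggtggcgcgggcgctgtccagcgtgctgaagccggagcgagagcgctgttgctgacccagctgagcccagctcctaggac
Sst (chr11:90461296-90461595, plus strand): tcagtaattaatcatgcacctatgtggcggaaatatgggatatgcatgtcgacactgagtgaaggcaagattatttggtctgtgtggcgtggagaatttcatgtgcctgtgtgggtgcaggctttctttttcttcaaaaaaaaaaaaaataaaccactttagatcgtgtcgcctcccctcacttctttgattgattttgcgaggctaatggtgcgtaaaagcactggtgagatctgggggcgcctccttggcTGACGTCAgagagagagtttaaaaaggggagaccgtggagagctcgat
The CRE began 142 bases before the annotated start in Cartpt, 123 bases before it in Scg2 and 90 bases before it in Vgf. In Sst it began 2 bases after the annotated start. A match describes the letters of the window and not a bound site.

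Recovered reads over genes were 4747019 to 7035869 per library. The αSyn 3K vector had 3801 to 28883 normalized counts in 3K libraries and 84.2 to 249.8 in EV libraries. Its mean in 3K libraries was 4203, 8650 and 24755 at days 6, 12 and 19. The empty vector averaged 2170, 2677 and 3729 in EV libraries at these days. The level of the 3K vector and culture age thus rose together and cannot be told apart. Neuronal and astrocyte markers were both abundant, and microglial markers were near 0, with C1qa, a complement gene of microglia, at 0 reads in all 30 libraries. In such bulk libraries, fewer cells of a type and less RNA per cell cannot be told apart.

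By day 19, αSyn 3K cultures had 4 of 15 tested peptide precursors higher and 3 lower than EV, 1 of 6 granins higher and none of 4 processing enzymes called, and the difference between these roles was not tested. Cartpt, Tac1, Nppc, Adcyap1, Scg2 and Secisbp2l were higher in 3K, by 1.14-fold to 1.94-fold in the ratio of means, and Cck, Grp and Apln were lower, at 0.525 to 0.811 of EV. These were 9 of the 29 members (31%), against 7.86% of all genes tested (3.78% higher and 4.08% lower), at an adjusted p under 0.05 (limma, two-sided, adjusted over all 12911 genes). The members and the gene lists given later were chosen with earlier results of these data known. Their shares, here and in later comparisons, are therefore not a test against all genes. At day 12, 3 members were higher and none lower (10.3%, against 0.434% of all genes, 0.178% higher and 0.256% lower). At day 6 none passed, against 0.225% of all genes (0.139% higher and 0.0852% lower). At day 6, 10 members had an unadjusted p under 0.05, against 908 of all 12911 genes. edgeR called 0 members, against 19 genes higher and 12 lower over all genes. DESeq2 called Nppc among 29 genes higher and 24 lower over all genes. The 3 members of day 12, Cartpt, Nppc and Scg2, were among the 6 that were higher at day 19.

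**Figure D1:**
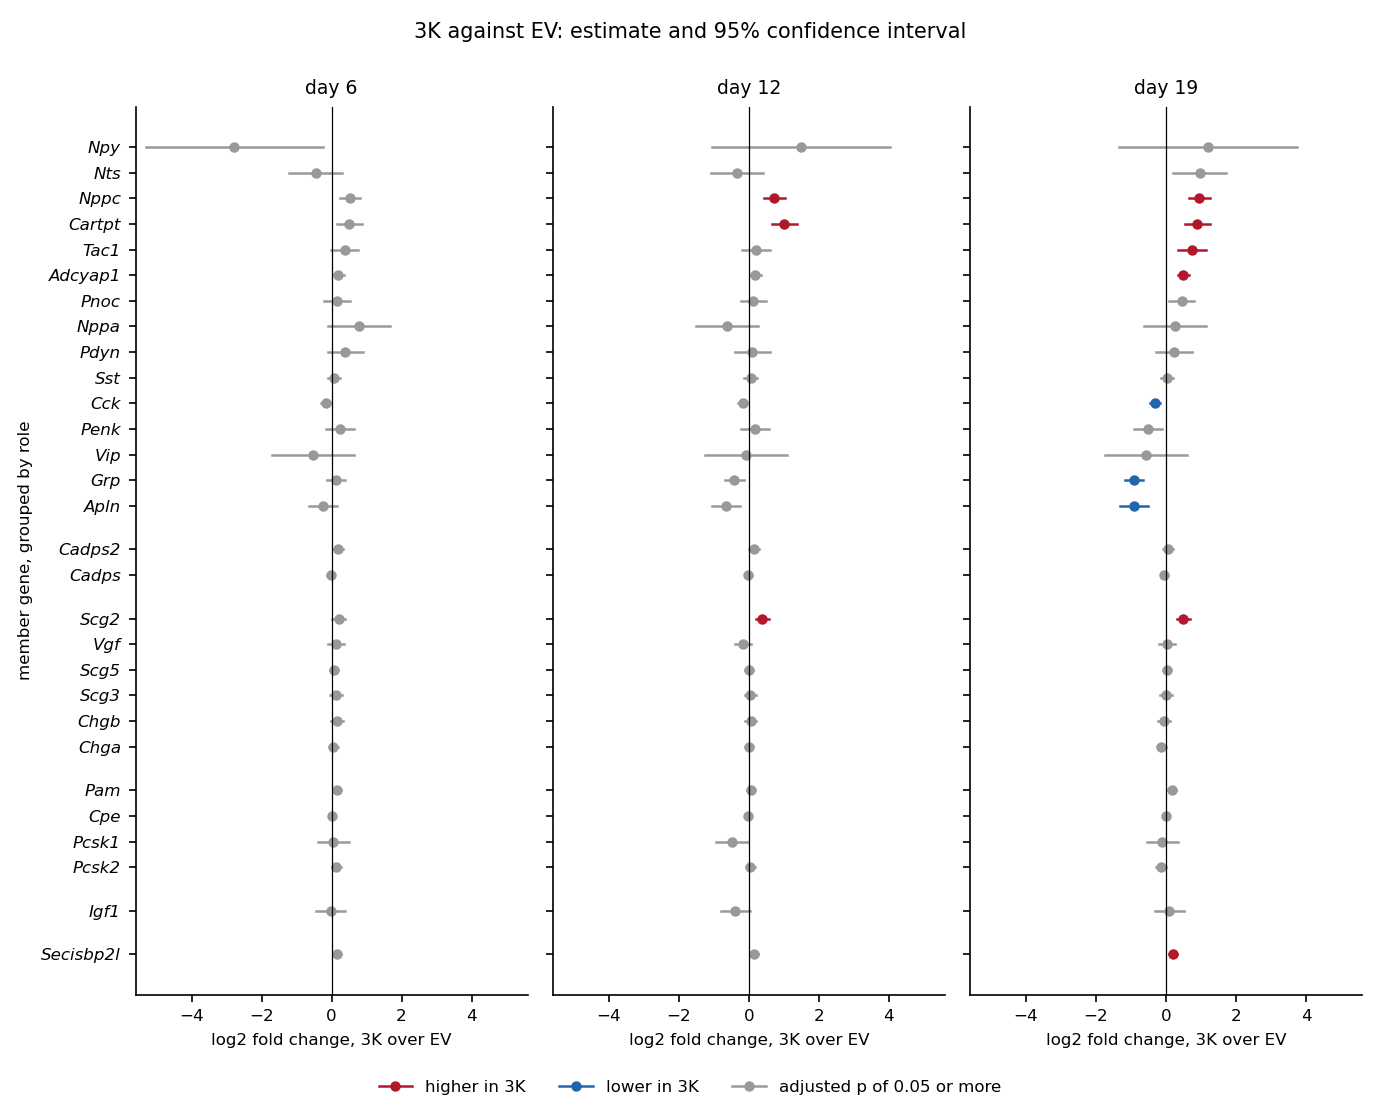
Log2 fold change of 3K over EV (x axis, log2 of the normalized count + 1) for the 29 tested members (y axis, grouped by role) at days 6, 12 and 19, with 95% confidence intervals from limma. No member was called at day 6, 3 were higher at day 12, and 6 were higher and 3 lower at day 19.

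Nppc, the precursor of C-type natriuretic peptide, a ligand of the guanylyl cyclase receptor Npr2, was higher in 3K from day 12 on. At day 19 its normalized counts were 103, 130, 121, 114 and 107 in 3K libraries, against 53.1, 59.1, 74.8, 59.6 and 49.6 in EV libraries. All 3K libraries were above all EV libraries, and the estimate was 0.95 on the log2 scale (SE 0.14, adjusted p = 3.1e-05). At day 12 the 3K libraries had 81.8, 51.3, 65.2, 85.5 and 87.7, against 41.9, 49.6, 33.7, 46.6 and 48.1 in EV, again without overlap (log2 fold change 0.73, SE 0.14, adjusted p = 0.0078). At day 6 the 3K libraries had 178, 161, 171, 127 and 169, against 93.7, 128, 90.7, 139 and 112 in EV. Those groups overlapped through 1 library of 3K, and the log2 fold change of 0.52 did not pass (adjusted p = 0.16), although DESeq2 called it (adjusted p = 0.021).

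Cartpt, the precursor of the CART peptides, had the largest log2 fold change of the members called at day 12. Its day 12 counts were 68.5, 67.4, 60.9, 65.2 and 63.9 in 3K, against 30.03, 27.0, 29.2, 29.2 and 45.9 in EV (log2 fold change 1.02, SE 0.18, adjusted p = 0.0018). The groups did not overlap, although 1 EV library stood well above the other 4. At day 19 it had 52.0, 60.0, 83.1, 79.6 and 69.4 in 3K, against 28.5, 45.4, 28.2, 35.6 and 47.5 in EV (log2 fold change 0.89, SE 0.18, adjusted p = 0.0011). At day 6 the counts were 87.6, 59.4, 61.4, 68.7 and 69.6 in 3K, against 57.4, 45.3, 33.5, 68.7 and 42.2 in EV, and these overlapped (log2 fold change 0.51, adjusted p = 0.38). The 3K level was thus nearly flat over the days, with a mean of 69.3, 65.2 and 68.8 at days 6, 12 and 19, while EV means were 49.4, 32.3 and 37.0.

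Tac1, the precursor of substance P and neurokinin A, was called at day 19. It had 113, 117, 97.8, 91.4 and 118 normalized counts in 3K, against 77.7, 69.1, 53.1, 57.6 and 63.0 in EV, with no overlap (log2 fold change 0.74, SE 0.19, adjusted p = 0.013). At day 12 its counts were 45.4, 36.2, 27.2, 20.4 and 23.8 in 3K, against 20.9, 26.1, 15.7, 31.4 and 38.1 in EV, fully intermixed. At day 6 they were 74.9, 71.6, 54.1, 53.7 and 55.3 in 3K, against 42.2, 49.7, 41.0, 43.7 and 61.4 in EV, where 1 EV library reached into the range of 3K.

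Adcyap1 encodes PACAP, a peptide that raises cAMP through its receptors. At day 19 it had 241, 329, 257, 298 and 242 normalized counts in 3K, against 186, 214, 182, 195 and 184 in EV. All 3K libraries were above all EV libraries (log2 fold change 0.50, SE 0.07, adjusted p = 3.1e-05). The day 12 counts were 224, 205, 214, 197 and 248 in 3K, against 186, 209, 180, 191 and 189 in EV, which overlapped (log2 fold change 0.19). At day 6 they were 372, 342, 368, 390 and 366 in 3K, against 330.1, 318, 325, 339.6 and 291 in EV, which did not overlap but did not pass over all genes (log2 fold change 0.20, adjusted p = 0.47).

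**Figure D2:**
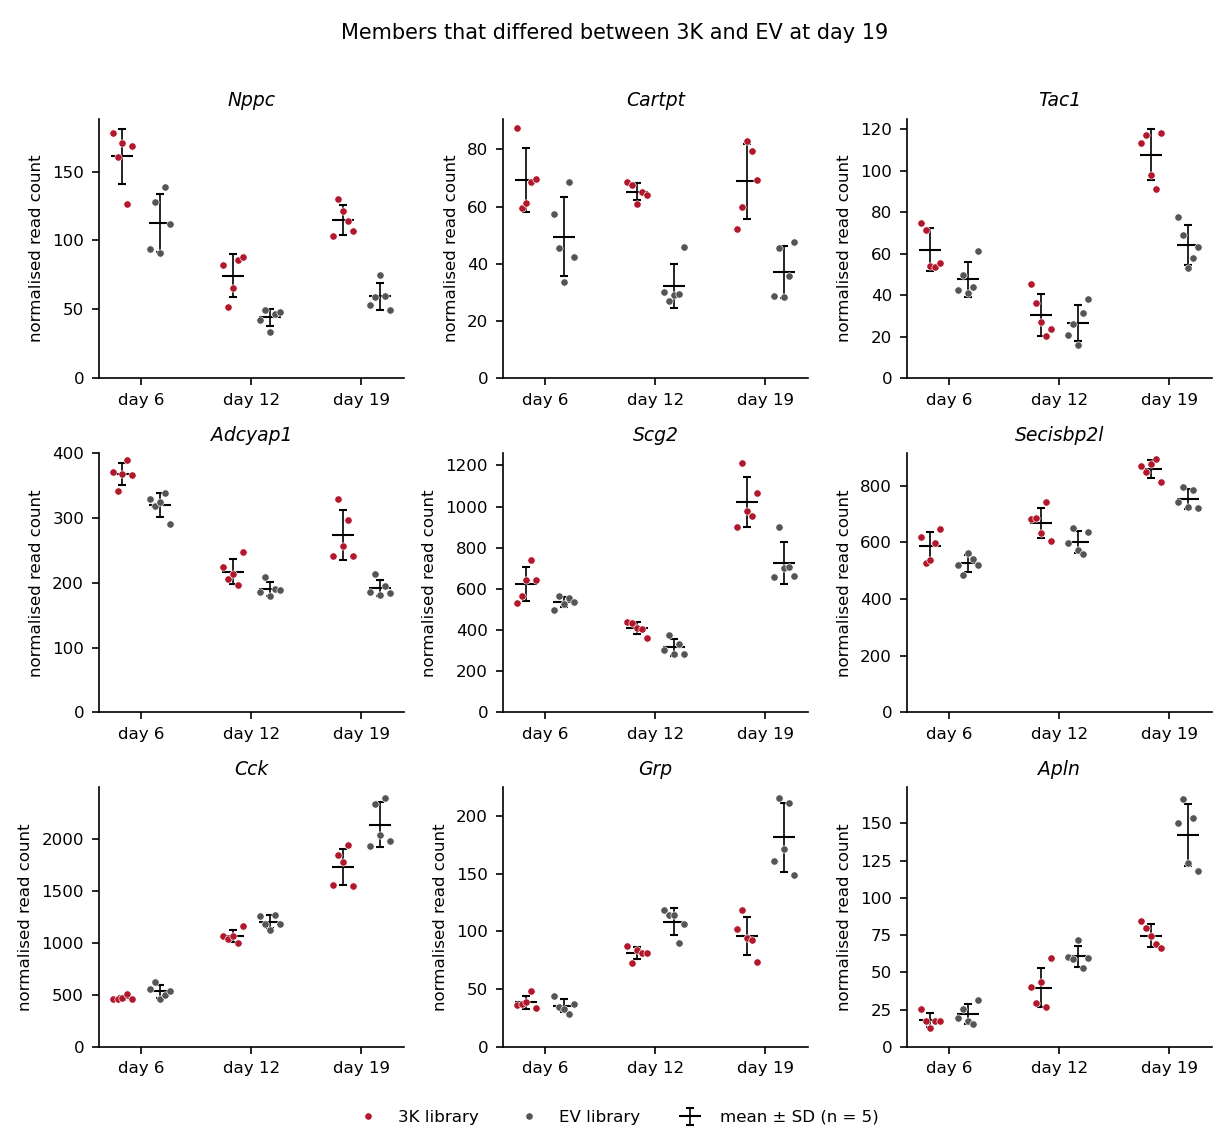
Normalized read counts (y axis, from 0, own scale in each panel) of the 9 members that differed between 3K and EV at day 19, in every library at days 6, 12 and 19 (3K red, EV grey, n = 5 per group), with bars for the mean and SD. Grp and Apln of 3K stay at 73.5 to 118 and 66.3 to 84.2 at day 19, below all EV libraries, while Nppc, Cartpt, Tac1, Adcyap1 and Secisbp2l of 3K lie above all of them.

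Grp and Apln were lower in 3K at day 19. Grp, the gastrin-releasing peptide precursor, had 102, 118, 94.1, 92.4 and 73.5 normalized counts in 3K, against 161, 215, 171, 211 and 149 in EV. No 3K library reached an EV library, and the log2 fold change was −0.91 (SE 0.13, adjusted p = 1e-05). At day 12 it had 87.2, 72.5, 83.7, 81.5 and 81.2 in 3K, against 118, 114, 115, 89.9 and 106 in EV, again without overlap but not past the threshold over all genes. At day 6 the counts were 36.1, 36.7, 38.5, 48.3 and 33.4 in 3K, against 43.9, 34.9, 32.4, 28.7 and 37.4 in EV, with a log2 fold change of 0.12. Grp was the one member for which a difference of the 3K effect between day 19 and day 6 passed over all genes. It was −1.03 on the log2 scale (95% confidence interval −1.40 to −0.67, adjusted p = 0.0011), 1 of 29 against 1.51% of all genes (0.736% higher and 0.775% lower). In this limma test, 10 members had an unadjusted p under 0.05, against 1674 of all 12911 genes. Leaving out 3K day 19 replicate 2 made the count that passed 2 of 29, the other being the convertase Pcsk2 (−0.33, adjusted p = 0.048), which did not pass with all libraries. Over all genes that fit called 74 higher and 93 lower.

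Apln, the precursor of apelin, which acts on the receptor Aplnr, had 84.2, 79.7, 74.5, 68.8 and 66.3 normalized counts in 3K at day 19, against 150.5, 166, 124, 154 and 118 in EV. The groups did not overlap (log2 fold change −0.91, SE 0.19, adjusted p = 0.0019). At day 12 it had 40.0, 29.2, 43.5, 26.5 and 59.5 in 3K, against 60.1, 59.1, 71.9, 53.1 and 59.3 in EV, and at day 6 it had 25.3, 17.5, 12.5, 17.2 and 17.2 in 3K, against 19.4, 25.3, 17.3, 15.0 and 31.7 in EV. The difference between the effects at day 19 and day 6 was −0.67 (95% confidence interval −1.22 to −0.11, adjusted p = 0.27).

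Cck, the cholecystokinin precursor, was the most abundant member called among the precursors. At day 19 it had 1558, 1846, 1773, 1938 and 1547 normalized counts in 3K, against 1927, 2336, 2040.3, 2397 and 1981 in EV. One 3K library lay just above the lowest EV library (log2 fold change −0.30, SE 0.07, adjusted p = 0.0052). At day 12 the counts were 1066, 1034, 1068, 998 and 1161 in 3K, against 1263, 1183, 1122, 1265 and 1182 in EV, and at day 6 they were 462, 463, 467, 509 and 456 in 3K, against 556, 623, 459, 496 and 533 in EV. The log2 fold changes of −0.18 at day 12 and −0.17 at day 6 did not pass.

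Of the 6 granins, Scg2, the secretogranin from which secretoneurin is cut, was called. At day 19 it had 899, 1213, 978, 955 and 1064 normalized counts in 3K, against 660.1, 902, 702, 704 and 661 in EV. EV replicate 2 overlapped the lowest 3K library by a narrow margin (log2 fold change 0.50, SE 0.09, adjusted p = 0.00047). At day 12 it had 439, 437, 409.7, 406 and 362 in 3K, against 301, 378, 283, 331 and 284 in EV (log2 fold change 0.38, SE 0.09, adjusted p = 0.046). That day 12 call was lost when any library but 3K replicate 5 or EV replicate 2 was left out (adjusted p = 0.066 to 0.18 in those 8 fits) and with edgeR (adjusted p = 0.084). At day 6 it had 530.0, 565, 645, 741 and 643 in 3K, against 499.9, 565, 529, 557 and 534 in EV, with a log2 fold change of 0.21 that did not pass.

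The other 5 granins did not pass at day 19. Vgf, a granin-like precursor of several peptides, averaged 1399.7 ± 205 normalized counts in 3K and 1376 ± 278 in EV (SD, n = 5 each), a log2 fold change of 0.04 (95% confidence interval −0.19 to 0.26). Scg3, a sorting receptor for granins, had 0.00 (−0.16 to 0.17), Scg5, the chaperone of Pcsk2 also called 7B2, had 0.03 (−0.09 to 0.14) and Chgb, chromogranin B, had −0.05 (−0.22 to 0.11). Chga, chromogranin A, had −0.14 (−0.27 to −0.01), an interval below 0, with an adjusted p of 0.19 over all genes.

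The processing enzymes did not pass at any day. Pcsk1 and Pcsk2 are the prohormone convertases that cut at paired basic residues, and their log2 fold changes at day 19 were −0.10 (95% confidence interval −0.55 to 0.35) and −0.14 (−0.27 to −0.01). Cpe, the carboxypeptidase that removes the basic residues left behind, averaged 12604 ± 466 normalized counts in 3K and 12669 ± 326 in EV, a log2 fold change of −0.01 (−0.08 to 0.06). Pam, the amidating enzyme, had 0.16 (0.05 to 0.27, adjusted p = 0.071). Cadps and Cadps2, which prime dense-core vesicles for release, had −0.05 (−0.15 to 0.05) and 0.05 (−0.09 to 0.19). Pcsk1n, the precursor of the Pcsk1 inhibitor proSAAS, was listed at 0 reads in all 30 libraries. Whether reads of this gene could be assigned to it is not given in the sources used here, so the 0 is not read as absent expression.

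Secisbp2l, which is related to the selenocysteine insertion factor Secisbp2, had 869, 847, 876, 894 and 813 normalized counts in 3K at day 19, against 741, 796, 725, 786 and 721 in EV. The groups did not overlap (log2 fold change 0.19, SE 0.06, adjusted p = 0.038), but the call was lost in 7 of the 10 fits without 1 library, which were those without 3K replicates 1, 2, 3 and 4 and EV replicates 1, 3 and 5 (adjusted p = 0.054 to 0.086). At day 12 it had 682, 687, 631, 741 and 605 in 3K, against 599, 649, 573, 558 and 635 in EV. At day 6 it had 618, 526, 539, 596 and 648 in 3K, against 518, 484, 562, 542 and 519.9 in EV.

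The remaining peptides did not pass at day 19. Sst, the somatostatin precursor and the most abundant precursor in these cultures by normalized count, averaged 2848 ± 273 in 3K and 2801 ± 415 in EV, a log2 fold change of 0.03 (95% confidence interval −0.15 to 0.21). Penk, the proenkephalin precursor, had −0.52 (−0.92 to −0.13, adjusted p = 0.098), Nts, the neurotensin precursor, had 0.96 (0.21 to 1.71, adjusted p = 0.11), and Pnoc, the nociceptin precursor, had 0.45 (0.09 to 0.81, adjusted p = 0.12). Pdyn (prodynorphin), Nppa (atrial natriuretic peptide), Vip and Igf1 had intervals that reached from −1.75 at the lowest, in Vip, to 1.16 at the highest, in Nppa. Crh, Nmb, Gal and Trh were too low to test, at 18, 162, 50 and 65 reads over all 30 libraries.

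The members differed more between ages of the culture than between treatments, with a median absolute log2 fold change of 0.94 between day 19 and day 6 in EV and 0.23 between 3K and EV at day 19 (0.39 and 0.10 over all genes). In EV cultures, 25 of 29 members differed at day 19 against day 6 (86.2%, against 65.1% of all genes), with 19 higher and 6 lower (32.9% and 32.2% of all genes). All 6 granins and all 4 processing enzymes tested were higher at day 19 in EV, and the same 10 were higher in 3K. Vgf led the rises, at 1376 ± 278 normalized counts at day 19 and 161 ± 11.6 at day 6 in EV (log2 fold change 3.07, SE 0.11, adjusted p = 1.7e-21). Apln followed at 142 ± 20.8 and 21.7 ± 6.74 (2.69, SE 0.19, adjusted p = 7.5e-14), then Grp at 182 ± 30.1 and 35.5 ± 5.71 (2.32, SE 0.13, adjusted p = 1.2e-16). Pdyn had 26.3 ± 5.44 and 4.89 ± 1.85 (2.25, SE 0.25, adjusted p = 1.7e-09), and Nppa had 10.6 ± 2.29 and 2.40 ± 1.99 (2.01, SE 0.44, adjusted p = 0.00017). Cck, at 2.00 (SE 0.07), was close behind.

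Nts fell furthest in EV, to 7.28 ± 4.87 normalized counts at day 19, against 99.7 ± 12.3 at day 6 (log2 fold change −3.88, SE 0.37, adjusted p = 6.3e-11). Nppc was at 59.2 ± 9.64 and 113 ± 20.9 (−0.91, SE 0.14, adjusted p = 1.6e-06), and Pnoc at 41.6 ± 8.23 and 72.8 ± 10.97 (−0.80, SE 0.18, adjusted p = 0.0002). Adcyap1 was at 192 ± 13.0 and 321 ± 18.5 (−0.74, SE 0.07, adjusted p = 3.3e-10), and Cadps2 at 264 ± 22.4 and 404 ± 29.8 (−0.61, SE 0.07, adjusted p = 3.3e-09). Cartpt was the sixth, at −0.40 (adjusted p = 0.049), a call lost without EV day 6 replicate 1, 2 or 4 or EV day 19 replicate 1, 3 or 4 (−0.27 to −0.42, adjusted p = 0.056 to 0.19) and in 4 of 11 other settings. In 3K the count was also 25 of 29 at day 19 against day 6 (63.4% of all genes), with 20 higher and 5 lower (32.2% and 31.3% of all genes). The log2 fold change of Cartpt in 3K was −0.02 and that of Grp was 1.29, while Nppc was at −0.48 and Nts at −2.47.

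**Figure D3:**
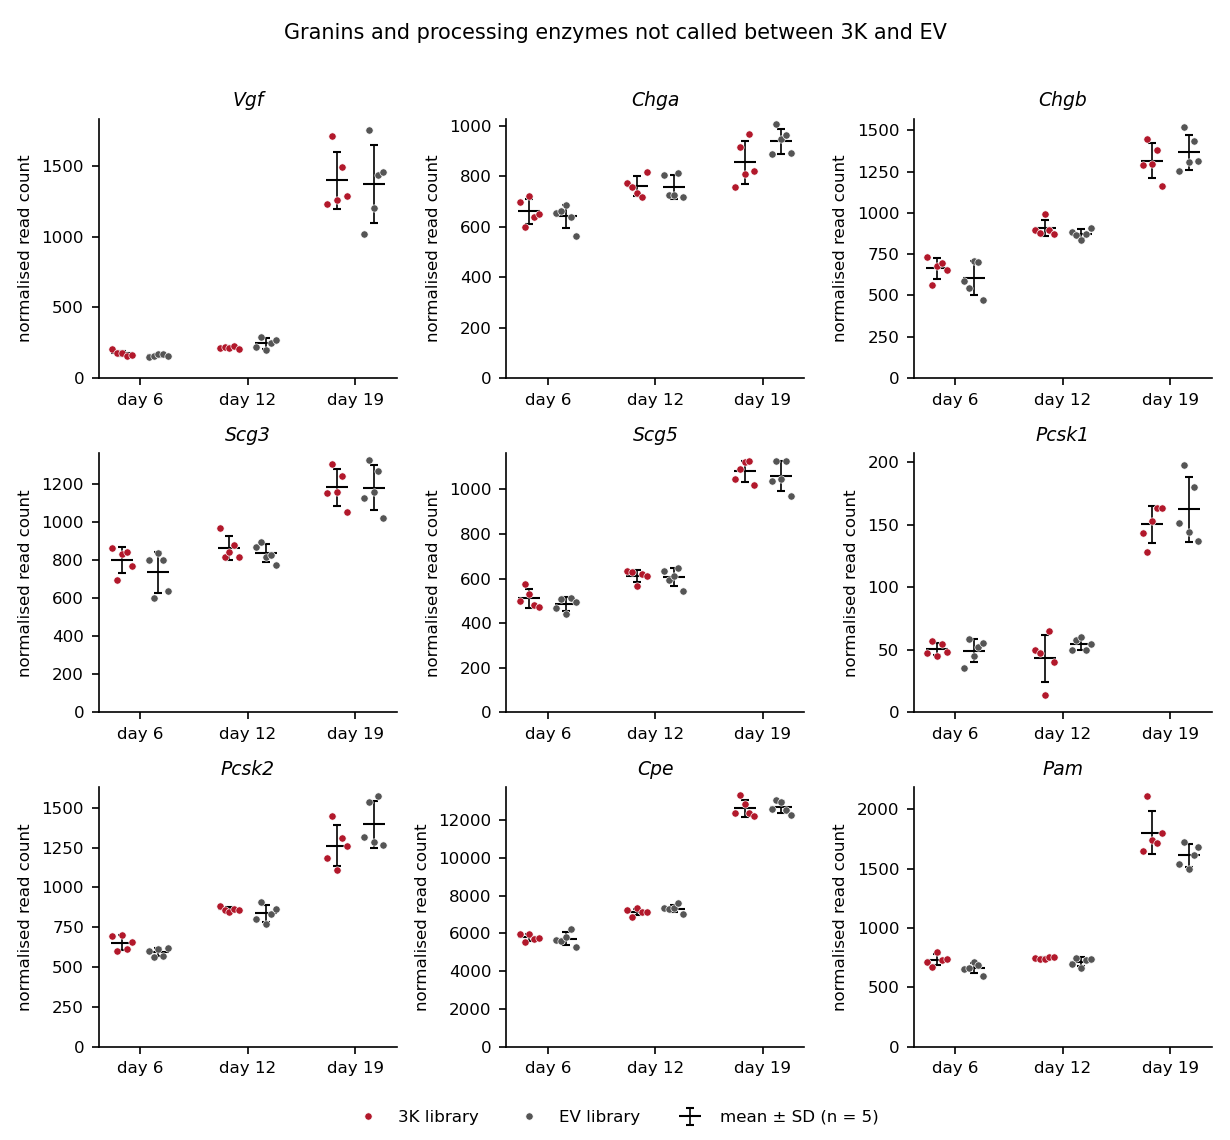
Normalized read counts (y axis, from 0, own scale in each panel) of 5 granins and 4 processing enzymes in every library at days 6, 12 and 19 (3K red, EV grey, n = 5 per group), with bars for the mean and SD. All 9 are higher at day 19 than at day 6 in both treatments, and 3K and EV overlap at day 19 in each panel.

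Between these ends, several peptide genes passed through a low at day 12. In EV, 23 members differed at day 12 against day 6, 13 higher and 10 lower (44.5% of all genes, 23.3% and 21.2%), and 21 differed at day 19 against day 12, 20 higher and 1, Nts, lower (45.4% of all genes, 23.6% and 21.7%). Penk, Tac1, Pnoc, Sst, Nppc, Scg2 and Cadps2 fell by day 12 and rose after it, which was 7 of 29 members (24.1%), against 268 of 12911 genes (2.08%). Both steps share the day 12 EV libraries. Of these calls, the Pnoc rise was lost without EV day 12 replicate 2, 4 or 5 or EV day 19 replicate 2 or 5 (adjusted p = 0.067 to 0.088) and in a fit to the compared groups (adjusted p = 0.084), the Nppc rise without replicate 3 of EV day 12 or of EV day 19 (adjusted p = 0.068 and 0.066), and the Sst fall without EV day 6 replicate 2 or 4 (adjusted p = 0.057 and 0.072). In 3K libraries, which are separate from the EV libraries, the steps were called in 42.4% and 45.8% of all genes. The pattern held there for 9 of 29 members (31%, against 2.36% of all genes): the same 7 with Adcyap1 and Igf1. Nearest the threshold were the Cadps2 rise (log2 fold change 0.17, adjusted p = 0.049) and the Igf1 fall (−0.55, adjusted p = 0.028). Unlike the EV steps, the 3K steps to and from day 12 were not refit under other settings. The days are the same in both treatments. In every comparison between days within a treatment, culture age and any batch that goes with the day cannot be told apart. No member was highest at day 12 in either treatment, against 2.27% of all genes in EV and 2.74% in 3K.

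Penk had the deepest low. Its means in 3K were 89.4, 27.4 and 101 at days 6, 12 and 19, and those in EV were 76.1, 25.6 and 147. The steps in EV were −1.60 (SE 0.19) and 2.54 (SE 0.19) on the log2 scale, and those in 3K were −1.68 and 1.85. Tac1 stepped by −0.87 and 1.30 in EV and by −1.04 and 1.83 in 3K. Sst changed less, by −0.26 and 0.86 in EV and by −0.28 and 0.83 in 3K.

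**Figure D4:**
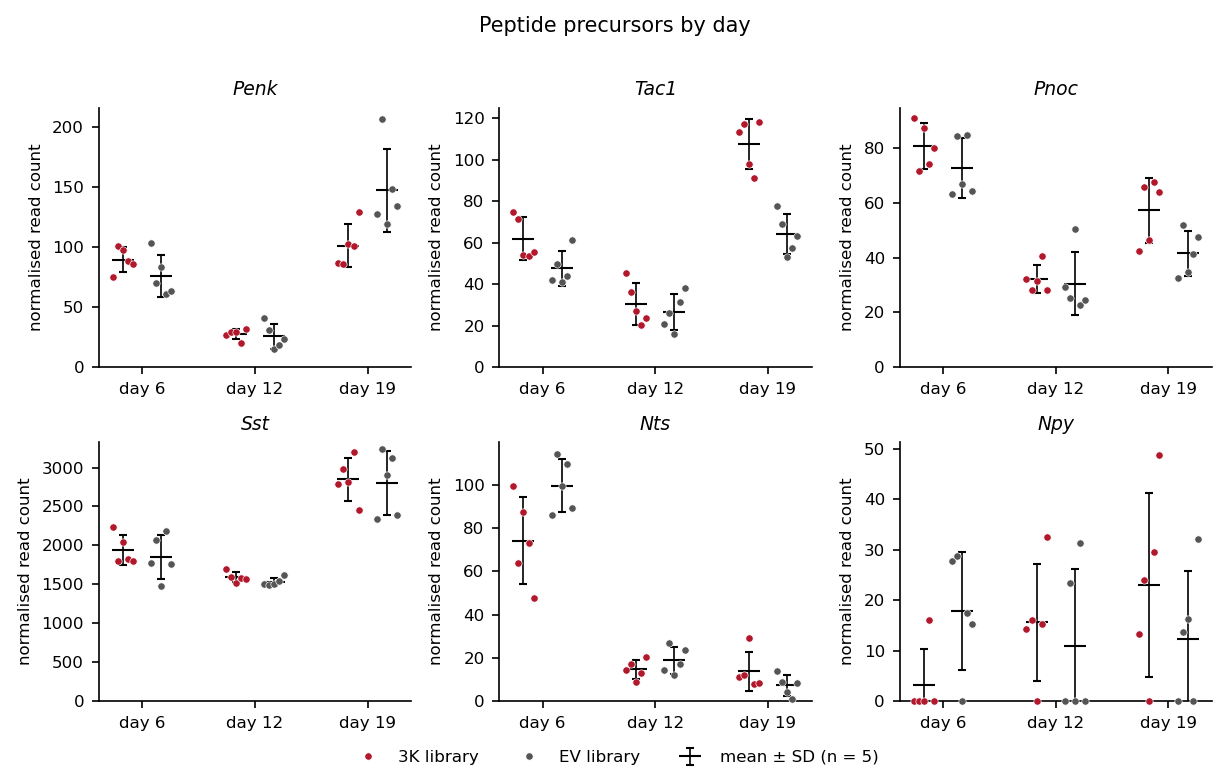
Normalized read counts (y axis, from 0, own scale in each panel) of 6 peptide precursors in every library at days 6, 12 and 19 (3K red, EV grey, n = 5 per group), with bars for the mean and SD. Penk, Tac1, Pnoc and Sst are lowest at day 12, Nts falls after day 6, and Npy is at 0 in 12 of the 30 libraries.

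The members that 3K moved at day 19 were set beside their early change in EV, from libraries that the 3K comparison at day 19 does not use. Of the 9 members called, 8 had opposite signs in both: Nppc (−1.33 at day 12 against day 6 in EV), Cartpt (−0.58), Tac1 (−0.87), Adcyap1 (−0.75) and Scg2 (−0.77) fell early in EV and were higher in 3K at day 19, and Grp (1.60), Apln (1.48) and Cck (1.18) rose early in EV and were lower in 3K. Secisbp2l, at 0.20, was the exception. Over the 29 members Pearson's r was −0.59 and Spearman's rho −0.53, and without Npy they were −0.54 and −0.48. With the early change taken in 3K in place of EV, they were −0.22 and −0.35 over the 29 members and −0.54 and −0.50 without Npy. Over all 12911 genes they were −0.14 and −0.18, and over the 1015 genes called at day 19 they were −0.34 and −0.37, with opposite signs in 66.1% of those. These are correlations across genes measured in shared libraries, and genes are not independent replicates.

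**Figure D5:**
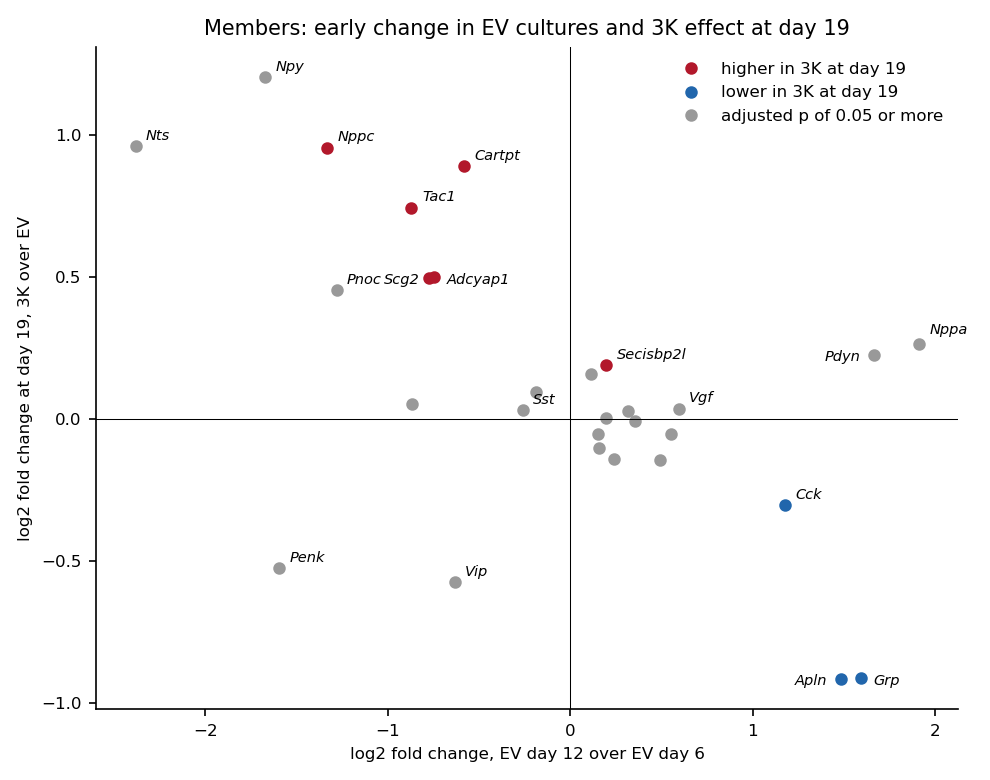
Log2 fold change of EV day 12 over EV day 6 (x axis) and of 3K over EV at day 19 (y axis) for the 29 tested members, colored by the call at day 19. The 5 called precursors and granins on the left are higher in 3K at day 19, the 3 called on the right of the zero line with large early rises are lower, and Secisbp2l is higher on both axes.

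Npy, the neuropeptide Y precursor, gave no usable comparison. It was at 0 in 12 of 30 libraries and between 13.2 and 48.7 normalized counts in the other 18. The 3K libraries had 0, 0, 0, 16.1 and 0 at day 6, 14.2, 16.1, 0, 15.3 and 32.5 at day 12, and 13.2, 24.0, 0, 29.5 and 48.7 at day 19. The EV libraries had 27.9, 28.8, 0, 17.5 and 15.3 at day 6, 0, 23.5, 0, 31.4 and 0 at day 12, and 0, 13.6, 16.3, 0 and 32.0 at day 19. Zeros and values above 13 stood side by side in all 6 groups. Its 3K call at day 19 against day 6 (log2 fold change 2.99, adjusted p = 0.036) was lost in 8 of 10 fits without 1 library, where the adjusted p reached 0.095.

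Lists of related genes were read against the 7.86% of all genes called at day 19. None of the 18 peptide receptors tested passed. The smallest adjusted p was 0.078 for Npy1r, a receptor of neuropeptide Y, at a log2 fold change of −0.23, followed by Igf1r (0.21), Sstr3 (−0.52) and Tacr3 (0.47). Of 20 genes of dense-core vesicle machinery, Syt4, a synaptotagmin of these vesicles, was higher (0.18, adjusted p = 0.019) and Hid1, which acts in their formation, was lower (−0.16, adjusted p = 0.0054), while Cyb561 (−0.23) and Vps53 (−0.17) did not pass.

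Of 10 further processing genes, 3 were higher and none lower, namely Ctsl, a lysosomal protease that can also cut prohormones (log2 fold change 0.19, adjusted p = 0.006), Pcsk6, a furin-like convertase (0.53, adjusted p = 0.0077), and Qpct, which forms N-terminal pyroglutamate (0.34, adjusted p = 0.0099). Pcsk5 had 0.26 (adjusted p = 0.056). Of 12 peptide-degrading enzymes Thop1, thimet oligopeptidase, was lower (−0.31, adjusted p = 6.7e-05), and Ece1 (0.23), Dpp9 (−0.28) and Npepps (−0.09) did not pass. Of 3 other peptide precursors that could be tested, Nucb2, the nesfatin precursor, was higher (0.36, adjusted p = 0.00034), as was Adm, adrenomedullin, at 27.9 normalized counts in 3K and 8.13 in EV (1.67, adjusted p = 0.0014), and Calca had −0.28.

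Of 15 activity-induced genes, 1 was called at day 6, 2 at day 12 and 6 at day 19, all of them higher in 3K, against 0.225%, 0.434% and 7.86% of all genes called in either direction. At day 19 these included Nr4a2 (log2 fold change 1.14, adjusted p = 1.1e-10), the neurotrophin Bdnf (1.07, adjusted p = 2.8e-09), Dusp1 (0.66, adjusted p = 6.2e-07) and Fos (1.01, adjusted p = 3.5e-05). Bdnf was 0.59 at day 6 and 0.49 at day 12, and Fos was 0.92 at day 12. Their part in the peptide differences was not tested.

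None of the 11 markers of inhibitory neurons tested passed at day 19. The summed level of all 13 listed, tested or not, was 7010 to 7391 normalized counts in 3K and 6976 to 7442 in EV. Among those tested, the smallest adjusted p was 0.092, for Nos1 (log2 fold change 0.55), followed by Gad1 (0.15), Calb2 (−0.22) and Dlx2 (0.42). Of 11 excitatory markers, Fezf2 was higher (0.67, adjusted p = 2.9e-07) and Slc17a7 (−0.11, adjusted p = 0.005) and Camk2a (−0.38, adjusted p = 0.03) were lower, at summed levels of 10055 to 10938 in 3K and 10220.3 to 11326 in EV. Of 12 general neuronal markers, Snap25 and Nefl were lower (both −0.20, adjusted p = 0.033 and 0.035), Tubb3 (−0.13) and Rbfox3 (−0.17) did not pass, and the sum was 25516 to 27559 in 3K and 28265 to 29532 in EV. Of 10 astrocyte markers, Aldoc (−0.52), Glul (−0.33), S100b (−0.22) and Aldh1l1 (−0.35) were lower, while 3 of the 10 had positive values that did not pass, the largest that of Gfap (0.62, adjusted p = 0.063), and the sum was 48630 to 56461 in 3K and 55546 to 61147 in EV. Of 10 oligodendrocyte lineage markers, Cnp was higher (0.35, adjusted p = 0.047), while 4 had negative values that did not pass, down to Mag (−0.81, adjusted p = 0.25), and of 3 vascular and fibroblast markers none passed. At day 12 the inhibitory sum was 5271 to 5612 in 3K and 5724 to 5898 in EV, without overlap. The astrocyte sum did not overlap at day 12 either, at 26296 to 28312 in 3K and 29866 to 30946 in EV. The sums of the other marker lists overlapped at that day. The part of these differences in the peptide results was not tested.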

How the data were processed

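The 30 libraries were made from cDNA amplified with SMART-Seq v4, a kit that does not mark strand, so that a gene and its antisense partner cannot be told apart. The submitters' notes name STAR 2.5.2b, RSEM 1.2.31, FastQC and DESeq2 on Rnor_6.0. The signal values deposited by the authors are gene-level RSEM counts scaled by DESeq2 size factors, perhaps set with libraries not analysed here. All values (100%) were whole reads within 0.01 read.

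Genes with at least 10 normalized counts in at least 5 libraries were kept. limma 3.58.1 (R 4.3.3) was fitted on log2(normalized count + 1) with 6 group means and a variance trend over all 30 libraries. The added count of 1 can shrink fold changes of low genes. Where libraries at 0 stand beside higher values, fold changes can instead exceed the ratio of means. For Npy at day 12, the log2 fold change of 3K over EV was 1.50, at a 1.42-fold ratio of means. Tests were two-sided, adjusted by Benjamini-Hochberg over 12911 genes, with a threshold of 0.05. The fit was also run on simulated data, but the outcome is not reported here. Alternatives were edgeR 4.0.16 and DESeq2 1.42.0 on recovered reads, other pseudocounts (0.5 and 5), other filters, equal totals or upper quartiles, fits to the compared groups, a replicate block, the mitochondrial share as a covariate, and leaving out each library. No library pair within a group agreed within sampling noise (chi-square per degree of freedom 2.25 to 9.35 over 60 pairs).

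Members and gene lists were chosen with earlier results of these data known. Values in every library are given for members called between 3K and EV or whose effect changed with day, full statistics for the 5 largest rises and falls in EV, and up to 4 genes of each other list by smallest adjusted p. Of 210 list genes, 6 were not matched by symbol. Values of Npy and other members outside that rule were chosen after they were seen. One list gene that this rule names is not reported here.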

Additional observations from a re-analysis of the deposited data

Results flagged for a closer look

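Single libraries stood apart from the other 4 of their group in 9 of 174 groups of member values checked with Dixon's test, near the 1 in 20 that chance gives. In 3K at day 6, replicate 4 was highest for Cck, at 509.2 normalized counts against 456 to 467 in the others, and for Npy, at 16.11 against 0. In 3K at day 12, replicate 4 was lowest for Vip, at 0 against 7.04 to 7.61, and replicate 3 was highest for Chgb, at 991.0 against 870.4 to 899. In 3K at day 19, replicate 3 was highest for Nts, at 29.33 against 7.86 to 12.0.

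In EV at day 12, replicate 5 was highest for Cartpt, at 45.9 against 27.0 to 30.03, and replicate 3 was highest for Pnoc, at 50.53 against 22.7 to 29.1. In EV at day 19, replicate 2 was highest for Scg2, at 901.6 against 660.1 to 704, and for Nppa, at 14.54 against 8.67 to 10.3. The Cartpt, Scg2 and Grp differences between 3K and EV at day 19 passed in all 10 fits without 1 library.

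The 3K effect on Grp differed between day 19 and day 6 by −1.03 on the log2 scale, by a test of the difference itself.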

How the results depend on the processing

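The 107 gene results called in the main fit had 2250 values under other settings. Of these, 2200 kept the call, 50 lost it and 0 changed direction. Calls gained under another setting are not in this count, such as those of Nppc at day 6 with DESeq2 and of Pcsk2 in the change of the 3K effect. Calls between 3K and EV that were lost were those of Scg2 at day 12 (without a filter on low values, with edgeR and in 8 of 10 fits without 1 library) and of Secisbp2l at day 19 (without a filter and in 7 of 10). Calls between days that were lost were those of Cartpt, Pnoc, Nppc and Sst in EV and of Npy and Pnoc in 3K. The members lowest at day 12 in EV were 6 or 7 in the settings that refit both steps. The count of members called at day 6 was 1 with DESeq2, and 0 in the other settings. Without 1 library, the counts ranged from 0 to 0 at day 6, 2 to 4 at day 12 and 8 to 9 at day 19 for 3K against EV, from 22 to 25, 20 to 22 and 24 to 26 for the EV comparisons of day 12 with 6, 19 with 12 and 19 with 6, from 23 to 25 for 3K day 19 against day 6, and from 1 to 2 for the change of the 3K effect. Over all genes, fits without 1 library called 385 to 500 higher and 391 to 607 lower for 3K against EV at day 19. Equal totals gave 7 members higher and 3 lower at day 19. Over all genes equal totals gave 631 higher and 376 lower, against 488 and 527 in the main fit. edgeR and DESeq2 gave 7 and 4 members each. Over all genes they gave 506 higher and 564 lower (edgeR) and 511 higher and 591 lower (DESeq2).

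Correlations of same-numbered 3K and EV libraries were −0.121 to 0.192, and a library was closest to its own number in 0, 0 and 3 pairs at days 6, 12 and 19. At day 19, 3 pairs had 0.145 to 0.192, above the 0.09 that was highest between different numbers, a hint from the data that some libraries share more than a number. Not every pair passed 0.1, and no source says what a number marks, so the fits were left unpaired. With the replicate number as a block, the members called between 3K and EV were 0, 3 and 9 at days 6, 12 and 19. Over all genes that fit called 17, 21 and 490 higher and 12, 29 and 550 lower at these days. Genes with few reads, such as Vip and Nppa, had intervals too wide to show moderate differences at this depth.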

Other observations

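At day 19, replicate 2 was the highest library of its group in 20 of 29 members in EV (69.0%, against 22.41% of all genes tested) and in 13 of 29 in 3K (44.8%, against 19.98% of all genes). Without EV day 19 replicate 2, 9 members were called between 3K and EV at day 19, and without 3K day 19 replicate 2, 8 were. Over all genes, the first of these fits called 390 higher and 399 lower, and the other 425 higher and 486 lower.

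Npy was compared with the 1074 genes whose mean over the libraries lay within 1.5-fold of its own. Of these, 15 were at 0 in at least as many libraries as Npy, and the median gene was at 0 in none.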
